A study of Mus musculus with 12 samples.

Results

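Genes of the interferon response and of antigen presentation were followed in cultured mouse mesenchymal stem/stromal cells (MSCs), with and without the kinase p38α and with and without TGF-β. The set was chosen by gene name, with earlier results of these data known, and holds 48 genes. It comprises receptors of the interferons, the transcription factors behind them, sensors of foreign nucleic acid and antiviral effectors. Enzymes that modify proteins and parts of the machinery that presents peptides complete it. A probeset annotated to the gene symbol alone was found for 42 of the 48 genes, out of 17097 genes with such a probeset, and where a gene had several the one with the highest mean over the 12 arrays was used. Isg15, Ifi44, Bst2, Tap1, Tap2 and B2m were not analysed here.

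The 12 Affymetrix MG-430 PM arrays comprised TGF-β-treated p38α∆ MSCs on 3 arrays (numbered 1, 2 and 4 in their titles), p38α∆ MSCs on 2 (1 and 3), TGF-β-treated WT MSCs on 3 (1, 3 and 4) and WT MSCs on 4 (1, 3, 4 and 4b). All cells were immortalized bone marrow MSCs of mice that carry floxed alleles of Mapk14, the gene of p38α, and a tamoxifen-inducible Cre under the ubiquitin C promoter. Incubation with 4-hydroxytamoxifen gave the p38α∆ MSCs, and the WT MSCs received vehicle, so the loss of p38α and the exposure to 4-hydroxytamoxifen cannot be told apart here. The labels give FVB/NJ as the background strain of every sample, whereas the study's methods name C57BL/6J for its mice, and this was not settled here. Every group was kept in 0.5% serum, and treatment was with TGF-β at 5 ng/ml for 20 h. The sources used here do not say whether the line is 1 clone, what the array numbers stand for, or that arrays of a group are separate cultures. Each p-value therefore measures only the spread between these arrays, and their small number limits the precision of every value.

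Type I interferons bind the receptor chains IFNAR1 and IFNAR2, and interferon-γ binds IFNGR1 and IFNGR2. Kinases of the JAK family then phosphorylate STAT proteins, and a complex that holds STAT2 and IRF9 switches on antiviral genes through a DNA element called ISRE, whereas the response to interferon-γ runs largely through a GAS element. Fibroblasts and MSCs keep low levels of many of these products without infection, and TGF-β is generally known for restraining immune responses.

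All values are RMA-normalized log2 values, and a log2 difference of 1 is a doubling. Differences were fitted with limma to the 12 arrays together, allowing arrays that share a number to be correlated, so that a fitted difference can depart slightly from that of the group means. A gene is said to pass where its p, adjusted over all genes, was under 0.05. As a check of the treatment, Ccn2, a matrix protein that TGF-β induces, lay at 8.72 to 9.22 in TGF-β-treated p38α∆ MSCs against 4.10 to 4.28 in p38α∆ MSCs, and at 6.97 to 7.61 in TGF-β-treated WT MSCs against 3.35 to 3.96 in WT MSCs. Mapk14 itself was at 9.01 and 9.03 in p38α∆ MSCs and at 8.95 to 9.12 in WT MSCs, and at 9.27 to 9.51 in TGF-β-treated p38α∆ against 9.06 to 9.32 in TGF-β-treated WT MSCs. Its probeset was not placed against the floxed exon, and its level is therefore no check of the genotype. Of 15 leukocyte markers measured, 14 lay below the median level of all genes (5.11) and 7 in the lowest 25% (below 3.68), with Ptprc (CD45) at 2.67 to 2.97, and their mean level was 3.84 to 4.04 in TGF-β-treated p38α∆ MSCs, 3.80 to 3.88 in p38α∆ MSCs, 3.83 to 3.97 in TGF-β-treated WT MSCs and 3.82 to 4.00 in WT MSCs. Of these Fcer1g, a chain of immunoglobulin receptors, passed in 1 comparison, higher by 0.31 with TGF-β in WT MSCs (adjusted p = 0.0333 in limma). The 6 endothelial markers all lay below that median. Of 11 MSC markers 8 lay above it, with Thy1 in the lowest 25%, and their mean level was 7.87 to 7.93 in TGF-β-treated p38α∆ MSCs, 7.66 to 7.72 in p38α∆ MSCs, 7.75 to 7.85 in TGF-β-treated WT MSCs and 7.64 to 7.69 in WT MSCs. Of the MSC markers, Mcam was higher with TGF-β in p38α∆ MSCs (1.04, adjusted p = 0.000605) and in p38α∆ against WT MSCs with TGF-β (1.14, adjusted p = 0.00273), Cd44 was higher with TGF-β in p38α∆ (0.68) and in WT MSCs (0.70), Nt5e was higher in WT MSCs (0.49) and Pdgfra lower in p38α∆ MSCs (−0.78). The part of these markers in the results was not tested.

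Several interferon-induced genes were lower with TGF-β in each genotype. The counts of genes that passed come from 3 against 2 arrays in p38α∆ MSCs and 3 against 4 in WT MSCs and are not a test of one genotype against the other. In p38α∆ MSCs, 4 of the 42 genes were lower with TGF-β and 0 were higher, against 4.97% of all genes lower and 3.43% higher. Their median log2 difference was −0.19, against −0.003 over all genes, with 30 of 42 below 0 (50.8% of all genes) and 16 at an unadjusted p under 0.05 in limma (20% of all genes). In WT MSCs, 13 of the 42 genes were lower with TGF-β and 0 were higher, against 5.36% of all genes lower and 4.02% higher, with a median of −0.23 against −0.01 over all genes, 34 of 42 below 0 (52.9% of all genes) and 21 at an unadjusted p under 0.05 (21% of all genes). In bulk RNA, fewer expressing cells and less RNA per cell cannot be told apart for any of these differences. Without the array number in the fit, the 4 became 1 and the 13 became 6. Over all genes, 850 lower became 305 in p38α∆ MSCs and 917 became 316 in WT MSCs. Leaving out single arrays changed the counts of the 42 genes as well, and also the counts over all genes. The share over all genes is not given for each of these fits. The changes that follow are therefore not a result about the set. The 4 became 2 without TGF-β-treated p38α∆ array 1 or p38α∆ array 3 and 8 without WT array 4b. The 13 became 7 without TGF-β-treated WT array 1 and 8 without TGF-β-treated WT array 3 or 4 or WT array 3.

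With TGF-β present, 2 of the 42 genes were higher in p38α∆ than in WT MSCs and 0 were lower, against 0.368% of all genes higher and 0.0819% lower. The median was 0.08 against −0.01 over all genes, 34 of 42 lay above 0 (48.2% of all genes), and 10 had an unadjusted p under 0.05 (8.6% of all genes). The count of 2 was 0 without the array number in the fit, and 0 without TGF-β-treated p38α∆ array 1 or 4 or TGF-β-treated WT array 1 or 4, 1 without TGF-β-treated p38α∆ array 2, TGF-β-treated WT array 3 or WT array 3, and 5 without WT array 4b. Counts over all genes changed between these fits too, from 63 higher to 14 without the array number. They are not given for each array left out. The changes in the count of 2 are therefore not a result about the set. Without TGF-β, 0 of the 42 genes passed in p38α∆ against WT MSCs, as did 0% of all genes, and 8 had an unadjusted p under 0.05 (4.92% of all genes). The TGF-β responses of p38α∆ and WT MSCs differed for 0 of the 42 genes by the test of that difference, and for 0% of all genes, with 4 of the 42 at an unadjusted p under 0.05 (5.38% of all genes).

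**Figure D1:**
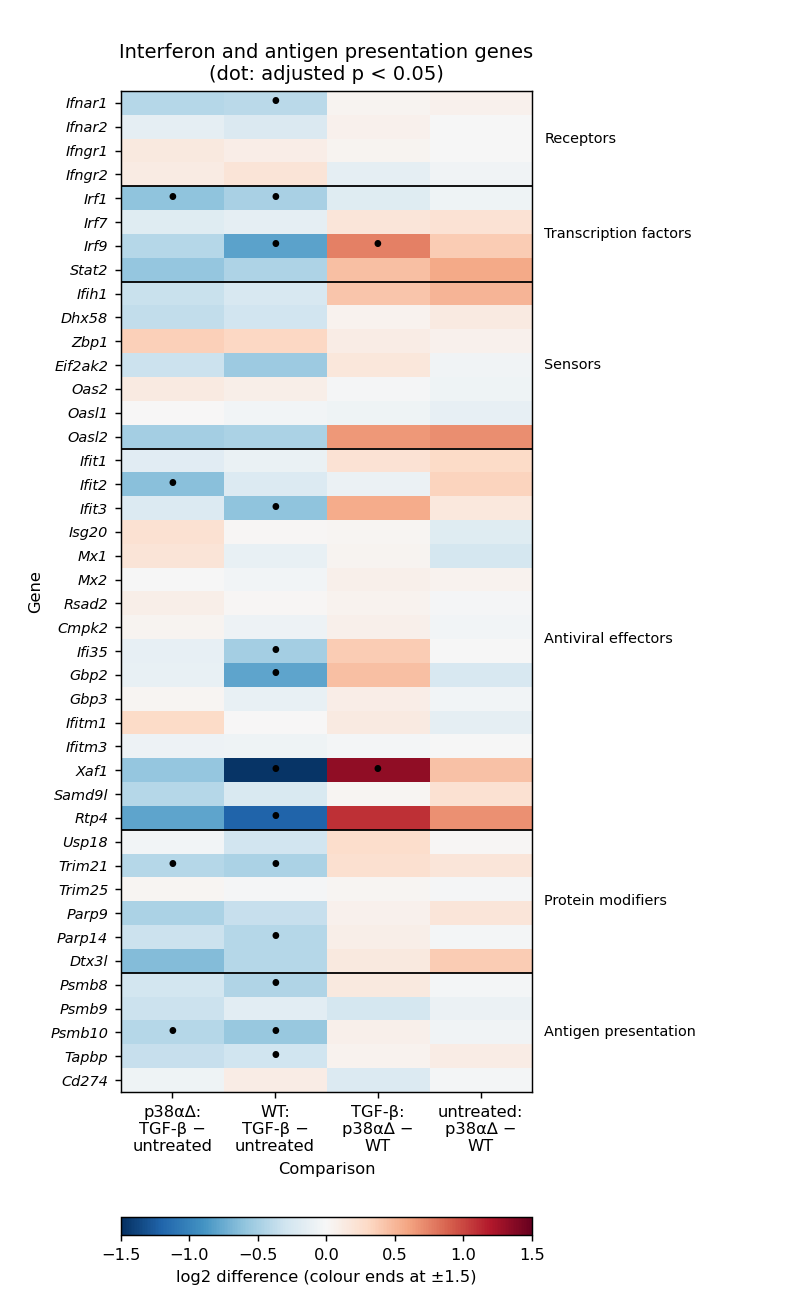
Fitted log2 differences of the 42 genes (rows, by role) in 4 comparisons (columns), with red for higher and blue for lower in the first-named group and a dot where the adjusted p was under 0.05. The 13 dots for TGF-β in WT MSCs spread over receptors, factors, effectors, modifiers and presentation genes, while the comparison of untreated cells holds none.

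The receptors were measured well above the lowest 25% of genes. Ifnar1, a chain of the type I interferon receptor, had log2 values of 7.23, 7.63 and 7.63 in p38α∆ MSCs with TGF-β, 7.94 and 7.88 in p38α∆ MSCs without it, 7.39, 7.47 and 7.46 in WT MSCs with TGF-β, and 7.91, 7.98, 7.78 and 7.72 in WT MSCs without it. Treated and untreated arrays did not overlap in either genotype. The difference of −0.43 in p38α∆ MSCs missed the threshold (SE 0.13, adjusted p = 0.0599 in limma), and that of −0.41 in WT MSCs passed it (SE 0.10, adjusted p = 0.0186).

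Ifnar2, its partner chain, had 9.79, 9.42 and 9.69 in p38α∆ MSCs with TGF-β, 10.02 and 9.49 in p38α∆ MSCs without it, 9.73, 9.32 and 9.59 in WT MSCs with TGF-β, and 10.07, 9.59, 9.62 and 9.73 in WT MSCs without it. All 4 groups overlapped, and the arrays numbered 1 were the highest of each group. Ifngr1, the ligand-binding chain for interferon-γ, had 7.102, 7.238 and 6.999 in p38α∆ MSCs with TGF-β, 7.021 and 6.930 in p38α∆ MSCs without it, 7.065, 7.175 and 6.938 in WT MSCs with TGF-β, and 6.858, 7.033, 6.881 and 7.004 in WT MSCs without it. Ifngr2, the chain that carries its signal, had 6.61, 7.33 and 7.27 in p38α∆ MSCs with TGF-β, 6.98 and 6.89 in p38α∆ MSCs without it, 6.99, 7.38 and 7.18 in WT MSCs with TGF-β, and 7.16, 7.13, 6.82 and 6.82 in WT MSCs without it. For these 3 chains the 4 comparisons gave log2 differences between −0.21 and 0.20, none of which passed.

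Among the transcription factors, IRF9 binds the ISRE and gives the complex with STAT2 its DNA contact. Irf9 had log2 values of 6.75, 6.79 and 6.96 in p38α∆ MSCs with TGF-β, 7.30 and 7.19 in p38α∆ MSCs without it, 5.99, 6.18 and 6.10 in WT MSCs with TGF-β, and 6.79, 6.88, 6.71 and 7.24 in WT MSCs without it. The 3 TGF-β-treated WT arrays were the lowest of all 12. In p38α∆ MSCs treated and untreated arrays did not overlap, but the difference did not pass (−0.43, SE 0.14, adjusted p = 0.0941 in limma). In WT MSCs Irf9 fell by 0.80 with TGF-β (SE 0.11, adjusted p = 0.000588), to 0.575 of the untreated level. With TGF-β, Irf9 was 1.68-fold higher in p38α∆ than in WT MSCs (log2 difference 0.75, SE 0.12, adjusted p = 0.0282). This last call was lost in 10 of 22 other settings, over which its adjusted p ranged from 0.00621 to 0.183 and its difference from 0.70 to 0.80.

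Stat2, the signal-carrying partner of IRF9, had 7.22, 7.25 and 7.26 in p38α∆ MSCs with TGF-β, 7.74 and 7.66 in p38α∆ MSCs without it, 6.56, 6.75 and 6.97 in WT MSCs with TGF-β, and 6.83, 7.11, 7.34 and 7.79 in WT MSCs without it. The WT arrays spread over almost 1 log2 unit, with array 4b the highest of the 12. No comparison of Stat2 passed, with differences of −0.58 for TGF-β in p38α∆ MSCs (adjusted p = 0.0776), −0.46 for TGF-β in WT MSCs (adjusted p = 0.0605), 0.46 for p38α∆ against WT MSCs with TGF-β (adjusted p = 0.36) and 0.57 for p38α∆ against WT MSCs without it (adjusted p = 0.982), all from limma.

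Irf1, a factor that interferon-γ induces and that drives immunoproteasome genes, had 7.15, 7.27 and 7.03 in p38α∆ MSCs with TGF-β, 7.84 and 7.63 in p38α∆ MSCs without it, 7.25, 7.28 and 7.37 in WT MSCs with TGF-β, and 7.91, 7.78, 7.78 and 7.66 in WT MSCs without it. Every treated array lay below every untreated one in both genotypes, and array 4b was not high for this gene. With TGF-β Irf1 was lower by a log2 difference of −0.60 (SE 0.10, adjusted p = 0.00279 in limma) in p38α∆ MSCs and of −0.49 (SE 0.08, adjusted p = 0.00168) in WT MSCs. Irf7, the factor that amplifies type I interferon production, had 5.33, 4.57 and 4.68 in p38α∆ MSCs with TGF-β, 5.30 and 4.76 in p38α∆ MSCs without it, 4.93, 4.35 and 4.73 in WT MSCs with TGF-β, and 4.84, 4.65, 4.77 and 4.98 in WT MSCs without it. Its groups overlapped throughout, and none of its comparisons passed.

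The start of the Irf1 gene carries a GAS element, shown because Irf1 passed in both genotypes. The stretch is chr11:53769904-53770013 (GRCm38.p6, RefSeq, plus strand), the 110 bases before the annotated start, with the match to the letters TTCNNNGAA in capitals.
Irf1: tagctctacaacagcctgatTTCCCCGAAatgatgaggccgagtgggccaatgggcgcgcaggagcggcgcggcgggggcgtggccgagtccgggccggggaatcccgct

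The sensors recognise foreign or misplaced nucleic acid. Of 7 measured, 0 passed in any comparison with limma, and 3 and 4 had an unadjusted p under 0.05 for TGF-β in p38α∆ and in WT MSCs, where 20% and 21% of all genes did. Oasl2, a relative of the oligoadenylate synthetases, had 4.03, 3.79 and 4.02 in p38α∆ MSCs with TGF-β, 4.39 and 4.43 in p38α∆ MSCs without it, 3.26, 3.27 and 3.37 in WT MSCs with TGF-β, and 3.68, 3.55, 3.55 and 4.39 in WT MSCs without it. Apart from WT array 4b, the groups stood in 4 separate levels, p38α∆ above WT at each treatment. With all arrays Oasl2 differed by 0.66 between p38α∆ and WT MSCs with TGF-β (SE 0.18, adjusted p = 0.198 in limma) and by 0.70 without TGF-β (SE 0.19, adjusted p = 0.982). Without WT array 4b both comparisons passed, at 0.68 (adjusted p = 0.00626) and 0.82 (adjusted p = 0.0132). In the first of them array 4b is in neither group, and the SE fell from 0.18 to 0.08.

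Ifih1 (MDA5), a sensor of long double-stranded RNA, had 5.28, 4.98 and 5.26 in p38α∆ MSCs with TGF-β, 5.46 and 5.59 in p38α∆ MSCs without it, 4.95, 4.69 and 4.77 in WT MSCs with TGF-β, and 4.75, 5.14, 5.00 and 5.32 in WT MSCs without it. Its p38α∆ arrays lay above its WT arrays with and without TGF-β, by 0.42 (adjusted p = 0.315 in limma) and by 0.51 (adjusted p = 0.982), neither of which passed. Zbp1, a sensor of Z-form nucleic acid, ran the other way from most of the set. Its values were 5.07, 4.97 and 4.78 in p38α∆ MSCs with TGF-β, 4.55 and 4.62 in p38α∆ MSCs without it, 4.88, 4.76 and 4.82 in WT MSCs with TGF-β, and 4.37, 4.55, 4.45 and 4.67 in WT MSCs without it. Zbp1 was the 1 gene of 42 whose treated arrays all lay above the untreated ones, in each genotype, as did those of 9.67% of all genes in p38α∆ MSCs and 5.37% in WT MSCs. The differences of 0.36 in p38α∆ MSCs (adjusted p = 0.0866 in limma) and 0.31 in WT MSCs (adjusted p = 0.0501) did not pass. A second Zbp1 probeset, at a similar mean of 4.67, gave only 0.21 in p38α∆ and 0.06 in WT MSCs. Zbp1 was picked out here after its values were seen.

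Of the other sensors, Dhx58 (LGP2), a regulator of MDA5, gave −0.37 for TGF-β in p38α∆ MSCs and −0.28 in WT MSCs, and Eif2ak2 (PKR), the kinase that halts translation on double-stranded RNA, gave −0.32 and −0.54 in the same order. Oas2, a synthetase of the RNase L activator, and Oasl1 stayed within −0.12 and 0.14 in all 4 comparisons, and Oasl1 lay in the lowest 25% of genes.

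The antiviral effectors held the largest differences. Xaf1, an interferon-induced protein that promotes apoptosis, had log2 values of 6.46, 6.51 and 6.84 in p38α∆ MSCs with TGF-β, 7.18 and 7.10 in p38α∆ MSCs without it, 5.03, 5.51 and 5.35 in WT MSCs with TGF-β, and 6.64, 6.64, 6.53 and 7.38 in WT MSCs without it. The 3 TGF-β-treated WT arrays stood about 1 log2 unit or more below all 9 others, and WT array 4b was the highest of the 12. In p38α∆ MSCs the difference with TGF-β was −0.58 and did not pass (SE 0.22, adjusted p = 0.156 in limma). In WT MSCs Xaf1 with TGF-β was at 0.361 of its untreated level (log2 difference −1.47, SE 0.17, adjusted p = 0.000183), with group means of 5.29 ± 0.24 in TGF-β-treated WT MSCs (SD, n = 3) and 6.80 ± 0.39 in WT MSCs (SD, n = 4). With TGF-β, Xaf1 was 2.51-fold higher in p38α∆ than in WT MSCs (log2 difference 1.33, SE 0.19, adjusted p = 0.0169).

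The second probeset of Xaf1 gave −1.21 for TGF-β in WT MSCs and 1.12 for p38α∆ against WT MSCs with TGF-β. In pairs of arrays of the same number, that second comparison came to 1.43 for number 1 and 1.49 for number 4 at the probeset used. The call for Xaf1 in p38α∆ against WT MSCs with TGF-β was lost in 7 of 22 other settings, among which its adjusted p ranged from 0.00251 to 0.162. The 150 bases before the start of Xaf1, chr11:72301479-72301628 (GRCm38.p6, plus strand), are shown as the gene with the largest difference, and neither of the letter patterns given here occurs in them.
Xaf1: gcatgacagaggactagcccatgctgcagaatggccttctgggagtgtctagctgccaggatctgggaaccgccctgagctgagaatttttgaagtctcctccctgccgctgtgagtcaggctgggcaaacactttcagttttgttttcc

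**Figure D2:**
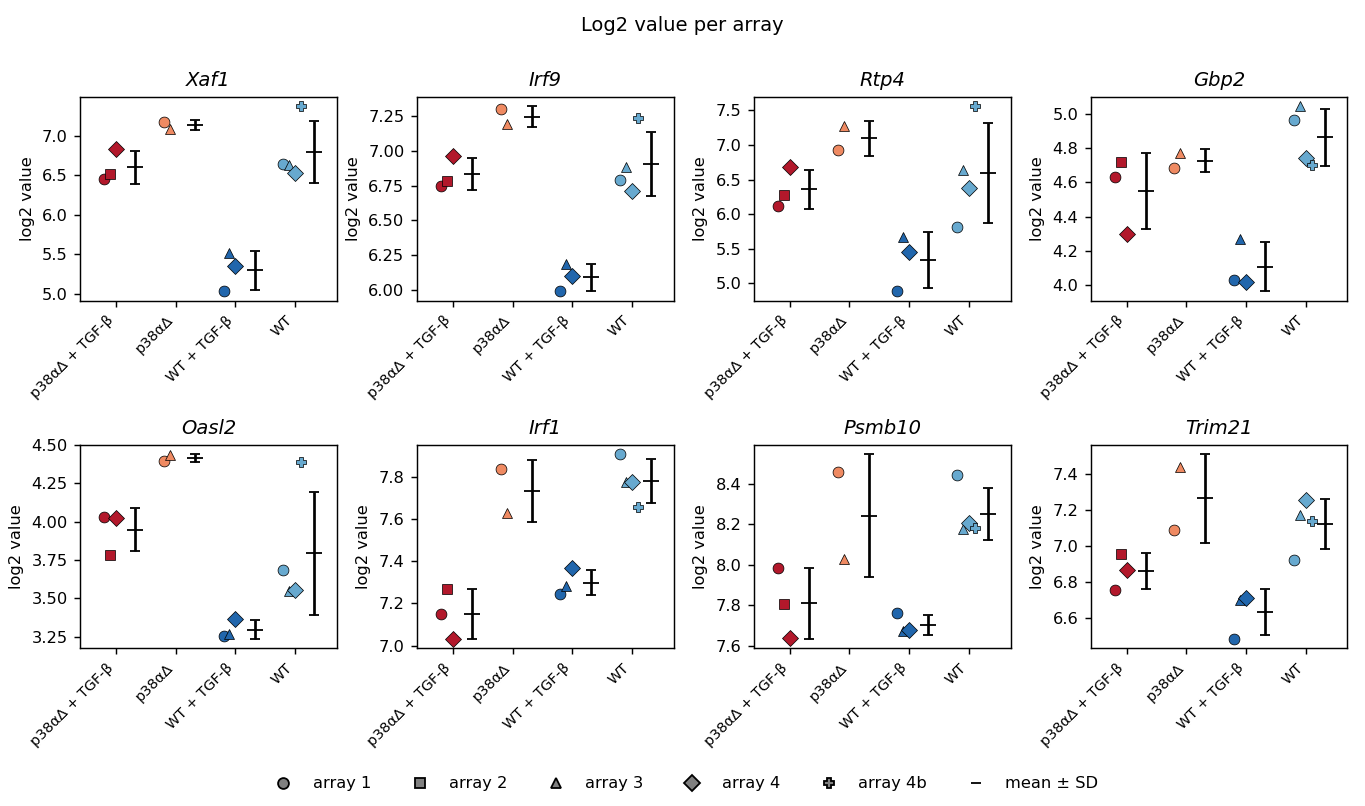
Log2 value of 8 of the genes in each of the 12 arrays, with 1 panel per gene, groups along the horizontal axis, the array's number as symbol, and the mean with SD (n = 3, 2, 3 and 4 from left to right) beside the points. Xaf1, Irf9, Rtp4, Gbp2 and Oasl2 are lowest in TGF-β-treated WT MSCs, Irf1 and Psmb10 are low in both treated groups, and WT array 4b is the highest WT array for Xaf1, Irf9, Rtp4 and Oasl2.

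Rtp4, a chaperone of membrane receptors that interferons induce, had 6.12, 6.28 and 6.68 in p38α∆ MSCs with TGF-β, 6.92 and 7.28 in p38α∆ MSCs without it, 4.88, 5.67 and 5.46 in WT MSCs with TGF-β, and 5.82, 6.64, 6.37 and 7.56 in WT MSCs without it. Its WT arrays spread more than those of any other gene of the set (SD 0.73, n = 4). In p38α∆ MSCs the difference with TGF-β was −0.79 (SE 0.33, adjusted p = 0.194 in limma), and it passed without WT array 4b, at −0.69 (adjusted p = 0.0389). That array is in neither of these groups, and the SE fell to 0.18. In WT MSCs Rtp4 fell by 1.20 with TGF-β (SE 0.25, adjusted p = 0.00956) and by 0.94 without WT array 4b (adjusted p = 0.00238).

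Rtp4 was 2.13-fold higher in p38α∆ than in WT MSCs with TGF-β, and the arrays of these groups did not overlap, but the difference of 1.09 did not pass (SE 0.29, adjusted p = 0.165), and passed without WT array 4b at 1.12 (adjusted p = 0.00944). Again array 4b is in neither group, and the SE fell to 0.15. Without TGF-β the difference between p38α∆ and WT MSCs was 0.68 (SE 0.30, adjusted p = 0.982), the arrays overlapped, and without WT array 4b it came to 0.87 (adjusted p = 0.231). Its second probeset, in the lowest 25% of levels at a mean of 3.30, gave −0.16 for TGF-β in WT MSCs and −0.03 for p38α∆ against WT MSCs with TGF-β.

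Gbp2, a GTPase that attacks the vacuoles of intracellular pathogens, had 4.63, 4.72 and 4.30 in p38α∆ MSCs with TGF-β, 4.68 and 4.77 in p38α∆ MSCs without it, 4.03, 4.27 and 4.02 in WT MSCs with TGF-β, and 4.97, 5.04, 4.75 and 4.70 in WT MSCs without it. Treated and untreated arrays overlapped in p38α∆ MSCs and lay apart in WT MSCs. The difference was −0.11 in p38α∆ MSCs (SE 0.11, adjusted p = 0.677 in limma) and −0.79 in WT MSCs (SE 0.08), which had the smallest adjusted p of the set (9.57e-05). The difference between the 2 responses was 0.69 (SE 0.14) and did not pass (adjusted p = 0.512, unadjusted p = 0.000377). Its second probeset, of a kind that can also read related genes, gave −0.47 in p38α∆ and −0.71 in WT MSCs, and a difference of 0.25 between the responses. With TGF-β, Gbp2 was 0.45 higher in p38α∆ than in WT MSCs without passing (adjusted p = 0.0743).

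The family of IFIT proteins binds viral RNA and blocks its translation. Ifit3 had 5.83, 5.50 and 5.69 in p38α∆ MSCs with TGF-β, 6.07 and 5.69 in p38α∆ MSCs without it, 5.10, 5.19 and 5.08 in WT MSCs with TGF-β, and 5.67, 5.66, 5.39 and 6.23 in WT MSCs without it. The TGF-β-treated WT arrays were again the lowest. TGF-β gave a difference of −0.21 in p38α∆ MSCs that did not pass (adjusted p = 0.672 in limma) and one of −0.61 in WT MSCs that did (SE 0.16, adjusted p = 0.0336), a call lost in 10 of 22 other settings (adjusted p up to 0.148). Ifit3 in p38α∆ against WT MSCs with TGF-β (0.56, adjusted p = 0.312) passed without WT array 4b at 0.58 (adjusted p = 0.045). Array 4b is in neither of these groups, and the SE fell from 0.18 to 0.11.

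Ifit2 had 3.36, 3.40 and 3.20 in p38α∆ MSCs with TGF-β, 3.76 and 4.19 in p38α∆ MSCs without it, 3.44, 3.61 and 3.24 in WT MSCs with TGF-β, and 3.51, 3.57, 3.54 and 3.89 in WT MSCs without it, with its mean in the lowest 25% of genes. It was lower with TGF-β in p38α∆ MSCs (−0.62, SE 0.15, adjusted p = 0.0269 in limma), and its difference in WT MSCs was −0.20 (adjusted p = 0.383). The difference between the responses, −0.42 (SE 0.20), did not pass (adjusted p = 0.916). Ifit1 had 3.48, 3.29 and 3.27 in p38α∆ MSCs with TGF-β, 3.48 and 3.57 in p38α∆ MSCs without it, 3.21, 3.20 and 3.06 in WT MSCs with TGF-β, and 2.87, 3.28, 3.27 and 3.64 in WT MSCs without it, in the lowest 25% of genes, and none of its comparisons passed.

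Gbp2 and Ifit3 passed with TGF-β in WT MSCs and carry the ISRE letters TTTCNNTTTC before their start, shown in capitals. The Gbp2 stretch is chr3:142620583-142620662 and the Ifit3 stretch chr19:34583359-34583528, both on the plus strand of GRCm38.p6 and ending at the base before the start.
Gbp2: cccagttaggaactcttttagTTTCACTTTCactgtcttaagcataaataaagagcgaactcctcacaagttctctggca
Ifit3: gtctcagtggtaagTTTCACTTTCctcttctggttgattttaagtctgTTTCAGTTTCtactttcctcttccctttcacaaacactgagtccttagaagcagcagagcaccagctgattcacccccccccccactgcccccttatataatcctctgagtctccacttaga

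Ifi35, an interferon-induced leucine zipper protein, had 7.11, 6.84 and 6.74 in p38α∆ MSCs with TGF-β, 7.25 and 6.72 in p38α∆ MSCs without it, 6.57, 6.31 and 6.54 in WT MSCs with TGF-β, and 7.14, 6.85, 6.81 and 7.09 in WT MSCs without it. The difference with TGF-β was −0.12 in p38α∆ MSCs, whose arrays overlapped (adjusted p = 0.702 in limma), and −0.50 in WT MSCs (SE 0.10, adjusted p = 0.00711). The test of one response against the other gave 0.39 and was not passed (adjusted p = 0.901). The remaining effectors passed in no comparison. Of these, Mx1 and Mx2 (GTPases against influenza and related viruses) and Gbp3 lay in the lowest 25% of genes. Rsad2 (viperin), Cmpk2, a nucleotide kinase, Isg20, an exonuclease, and Ifitm1 and Ifitm3, which block viral entry, gave differences between −0.18 and 0.29 in all 4 comparisons, and Ifitm3 lay at 11.76 to 12.01 over the 12 arrays. Samd9l, a restriction factor of poxviruses, gave −0.43 with TGF-β in p38α∆ MSCs (adjusted p = 0.232) and −0.23 in WT MSCs.

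Of the enzymes that modify proteins, Trim21, a cytosolic antibody receptor and ubiquitin ligase, passed in both genotypes. Its values were 6.75, 6.95 and 6.87 in p38α∆ MSCs with TGF-β, 7.09 and 7.44 in p38α∆ MSCs without it, 6.48, 6.70 and 6.71 in WT MSCs with TGF-β, and 6.92, 7.17, 7.25 and 7.13 in WT MSCs without it. Treated arrays lay below untreated arrays in both. The differences were −0.42 (SE 0.10, adjusted p = 0.0184 in limma) in p38α∆ MSCs and −0.48 (SE 0.07, adjusted p = 0.00161) in WT MSCs. The call in p38α∆ MSCs was lost in 6 of 21 other settings, with adjusted p up to 0.508. The 26 bases shown for Trim21, chr7:102565447-102565472 (GRCm38.p6, minus strand), lie just after its start and hold a pair of overlapping ISRE matches, read here as GAAANNGAAA and given in capitals.
Trim21: gagGAAACTGAAAGTGAAAtttggac

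PARP9 forms a complex with the ubiquitin ligase DTX3L, and PARP14 is a related enzyme that attaches ADP-ribose to proteins. Parp14 was lower by a log2 difference of −0.43 with TGF-β in WT MSCs (adjusted p = 0.0395 in limma), although its treated and untreated arrays overlapped, and this call was lost in 11 of 22 other settings. Parp9 gave −0.47 in p38α∆ and −0.35 in WT MSCs, and Dtx3l −0.65 and −0.43, without passing. Usp18, which removes ISG15 from proteins and dampens the type I receptor, and Trim25, a ubiquitin ligase of RNA sensing, lay in the lowest 25% of genes and passed in no comparison.

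Of the 5 antigen presentation genes measured, 1 was lower with TGF-β in p38α∆ MSCs and 3 in WT MSCs, and 0 were higher. Of all genes 4.97% and 5.36% were lower, and 3.43% and 4.02% higher. Psmb10, a catalytic subunit of the immunoproteasome, which cuts proteins into peptides for display, had 7.99, 7.80 and 7.64 in p38α∆ MSCs with TGF-β, 8.46 and 8.03 in p38α∆ MSCs without it, 7.76, 7.67 and 7.68 in WT MSCs with TGF-β, and 8.44, 8.18, 8.20 and 8.18 in WT MSCs without it. All treated arrays lay below all untreated arrays within each genotype. It fell by 0.43 (SE 0.11) in p38α∆ MSCs (adjusted p = 0.026 in limma) and by 0.56 (SE 0.08) in WT MSCs (adjusted p = 0.000887). Its call in p38α∆ MSCs was lost in 6 of 21 other settings, with adjusted p up to 0.351.

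Psmb8, the subunit that replaces the chymotrypsin-like site, had 9.24, 8.89 and 8.85 in p38α∆ MSCs with TGF-β, 9.59 and 8.95 in p38α∆ MSCs without it, 8.94, 8.67 and 8.85 in WT MSCs with TGF-β, and 9.50, 9.21, 9.11 and 9.21 in WT MSCs without it. It gave −0.27 in p38α∆ MSCs (adjusted p = 0.288 in limma), whose arrays overlapped, and fell by 0.45 in WT MSCs (SE 0.10, adjusted p = 0.0141). Its promoter holds a GAS match, in capitals in the 110 bases before the start at chr17:34198085-34198194 (GRCm38.p6, plus strand).
Psmb8: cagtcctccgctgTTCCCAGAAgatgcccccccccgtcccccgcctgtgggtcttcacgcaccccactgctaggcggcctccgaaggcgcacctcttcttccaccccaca

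Psmb9, the remaining immunoproteasome subunit, had 6.87, 6.35 and 6.23 in p38α∆ MSCs with TGF-β, 7.05 and 6.61 in p38α∆ MSCs without it, 7.02, 6.33 and 6.79 in WT MSCs with TGF-β, and 7.25, 6.77, 6.79 and 6.55 in WT MSCs without it. Its groups overlapped, nothing passed, and its 3 probesets differed in sign for TGF-β in p38α∆ MSCs (−0.33, 0.09 and 0.03). Tapbp (tapasin), which holds class I molecules at the peptide transporter, missed the threshold in p38α∆ MSCs (−0.35, SE 0.10, adjusted p = 0.0604) and passed in WT MSCs with a difference of −0.29 (SE 0.08, adjusted p = 0.0371), while its second probeset gave −0.48 in p38α∆ and −0.47 in WT MSCs. The Tapbp call in WT MSCs was lost in 13 of 22 other settings. Cd274 (PD-L1), a ligand that restrains T cells, had 4.28, 4.15 and 4.20 in p38α∆ MSCs with TGF-β, 4.24 and 4.19 in p38α∆ MSCs without it, 4.64, 4.05 and 4.44 in WT MSCs with TGF-β, and 4.22, 4.19, 4.42 and 4.29 in WT MSCs without it, with no comparison that passed.

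The letters of the elements were counted over the promoter windows that RefSeq gives, 250 bases before to 50 after each start, on both strands. For 33 of the 42 genes a window was found. The ISRE letters occurred in 25.6% of their 39 windows, against 3.44% of 32851 windows of all genes, and the GAS letters in 23.1% against 8.3%. Among the genes lower with TGF-β in WT MSCs, 11 had windows, of which 3 held the ISRE letters and 4 the GAS letters, compared with 7 and 5 of the 22 other genes of the set. A letter match is a description and not a site of binding.

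The responses of the 2 genotypes to TGF-β use separate arrays but were fitted together, with arrays of the same number correlated across genotypes. They are set side by side here and are not independent. Of the 42 genes 29 lay below 0 in both p38α∆ and WT MSCs (69%, against 34.5% of all genes), 7 above 0 in both and 6 had opposite signs. Irf1, Trim21 and Psmb10 were the 3 that passed in both, lower in each, as were 524 of the 17097 genes. Xaf1 (−0.58 and −1.47), Gbp2 (−0.11 and −0.79), Ifit3 (−0.21 and −0.61), Ifi35 (−0.12 and −0.50) and Irf9 (−0.43 and −0.80) had the smaller size in p38α∆ and the larger in WT MSCs, and Ifit2 (−0.62 and −0.20), Dtx3l (−0.65 and −0.43) and Samd9l (−0.43 and −0.23) the reverse. The response of p38α∆ minus that of WT MSCs was above 0 for 25 of the 42 genes and below 0 for 17, and it passed for none. The largest, that of Xaf1, was 0.89 (SE 0.29, adjusted p = 0.842 in limma, unadjusted p = 0.00887).

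**Figure D3:**
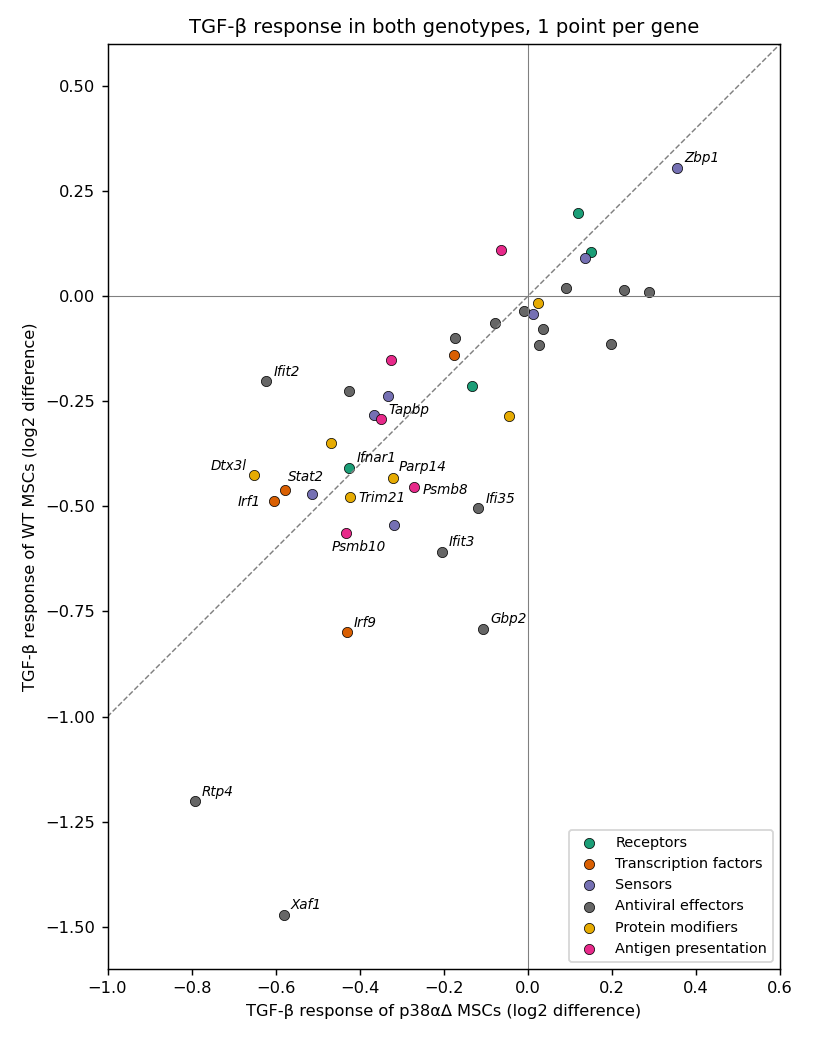
Log2 difference with TGF-β in p38α∆ MSCs (horizontal axis) against that in WT MSCs (vertical axis) for the 42 genes, colored by role, with equal responses on the dashed line and names for genes that passed in either genotype and for Zbp1, Stat2 and Dtx3l. Most points lie in the lower left quadrant, with Xaf1, Gbp2 and Irf9 below the line and Ifit2 above it.

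Of the 42 genes 14 had every treated array below every untreated array in p38α∆ MSCs, where 12.2% of all genes did, and 14 did so in WT MSCs, where 7.99% of all genes did. With TGF-β, 13 of the 42 genes had every p38α∆ array above every WT array (5.26% of all genes), and 0 had every p38α∆ array below (3.45% of all genes). Without TGF-β, Oasl2 and Ifih1 were the 2 genes with both p38α∆ arrays above all 4 WT arrays, against 3.52% of all genes. The comparison of TGF-β-treated p38α∆ with TGF-β-treated WT MSCs shares the 3 TGF-β-treated WT arrays with the TGF-β response of WT MSCs, so the opposite signs of Xaf1, Irf9, Rtp4, Gbp2 and Ifit3 in them rest partly on the same arrays.

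Within array numbers, the median of the 42 genes for TGF-β in p38α∆ MSCs was −0.19 for number 1, the only number that holds both groups, and in WT MSCs it was −0.20 for number 1, −0.22 for number 3 and −0.33 for number 4. For p38α∆ against WT MSCs with TGF-β it was 0.08 for number 1 and 0.08 for number 4, and Irf9 differed by 0.76 and 0.86 and Rtp4 by 1.24 and 1.22. Without TGF-β it was 0.09 for number 1 and 0.02 for number 3, where 30 and 21 of the 42 genes were above 0.

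WT array 4b stood apart for this set. For 18 of the 42 genes it lay above the other 3 WT arrays (42.9%, against 15.3% of all genes), most of all for Rtp4 (by 1.28 over their mean), Oasl2 (0.79), Xaf1 (0.77), Stat2 (0.69) and Ifit3 (0.66). Without it, 8 of the 42 genes were lower with TGF-β in p38α∆ MSCs (Irf9, Oasl2, Rtp4 and Stat2 beside the 4 above), 12 were lower and 1 (Zbp1) higher with TGF-β in WT MSCs, 5 were higher in p38α∆ than in WT MSCs with TGF-β (Xaf1, Irf9, Rtp4, Oasl2 and Ifit3) and 1 without TGF-β (Oasl2). Counts over all genes also changed as single arrays were left out, and the share for this fit is not given here. These counts are therefore not a result about the set. Array 4b is in neither group of the TGF-β response of p38α∆ MSCs or of p38α∆ against WT MSCs with TGF-β. It enters those comparisons through the spread that all 12 arrays share. Because arrays of the same number are fitted as correlated, it also moves the fitted differences. For example, Rtp4 with TGF-β in p38α∆ MSCs gave −0.79 with array 4b and −0.69 without it. The calls gained without it were for genes in which it lay above the other 3 WT arrays. They are therefore no separate support. The part of this array in the results was not tested further.

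**Figure D4:**
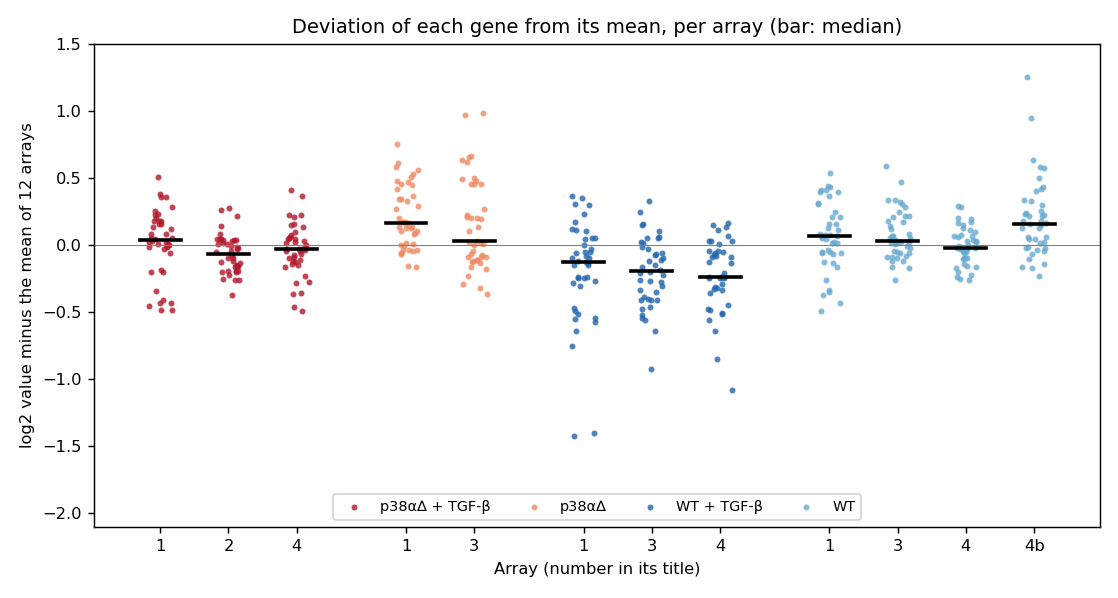
Log2 value of each of the 42 genes minus its mean over the 12 arrays, with 1 column of points per array and the median as a bar. The medians lie at −0.06 to 0.04 in TGF-β-treated p38α∆ MSCs, 0.17 and 0.03 in p38α∆ MSCs, −0.24 to −0.12 in TGF-β-treated WT MSCs, and −0.02 to 0.16 in WT MSCs, where array 4b is the highest.

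Further genes of the pathway, from lists that do not overlap with the 42, were measured too. Of 36 other effectors 7 were lower with TGF-β in p38α∆ MSCs and 10 in WT MSCs, and none was higher. Of all genes, 4.97% were lower in p38α∆ and 5.36% in WT MSCs, and 3.43% and 4.02% were higher. The 6 lower in both were Trim34a (−1.30 in p38α∆ and −0.80 in WT MSCs), Irgm2, an immunity-related GTPase (−0.94 and −0.60), Parp12, an antiviral ADP-ribosyltransferase (−0.76 and −0.69), Gbp7 (−0.71 and −0.70), Parp10 (−0.58 and −0.72) and Mov10, an RNA helicase (−0.66 and −0.71).

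Of 18 other sensing genes 2 were lower with TGF-β in p38α∆ MSCs, Tlr3, the endosomal receptor of double-stranded RNA (−0.88), and Ddx58 (RIG-I, −0.55), and 3 in WT MSCs, Tlr3 (−0.61), Ikbke (−0.54) and Ddx58 (−0.48). The shares of all genes were 4.97% and 5.36%. Of 19 other signalling genes 2 were lower and 1 higher in each genotype. Of all genes 4.97% and 5.36% were lower and 3.43% and 4.02% higher, in p38α∆ and WT MSCs. Counts this small are not read as a result about the signalling genes. Tyk2, the kinase bound to IFNAR1, was lower in both (−0.72 in p38α∆ and −0.68 in WT MSCs), Irf3 was lower in p38α∆ MSCs (−0.44) and Il10rb in WT MSCs (−0.36), and Socs3, an inhibitor of cytokine receptors, was higher in both (1.06 and 0.78). Ifnb1, the gene of interferon-β, was listed at 3.68 to 4.28 over all 12 arrays and did not pass.

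Of 23 other presentation genes, among them H2-K1 (10.16 to 10.62 in the 12 arrays), 0 passed in limma with TGF-β, and 2 in p38α∆ MSCs and 7 in WT MSCs had an unadjusted p under 0.05, as did 20% and 21% of all genes. With TGF-β, 1 gene of these lists differed between p38α∆ and WT MSCs, where 0.368% of all genes were higher and 0.0819% lower. Ube2l6, the enzyme that conjugates ISG15, had 7.29, 7.10 and 7.05 in TGF-β-treated p38α∆ MSCs against 6.75, 6.16 and 6.55 in TGF-β-treated WT MSCs, a difference of 0.62 (adjusted p = 0.0311). Without TGF-β, 0 of these genes passed, as did 0% of all genes.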

How the data were processed

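RNA of MSCs was hybridized to 12 Affymetrix MG-430 PM arrays. Raw signals were background-corrected, normalized and summarized by the authors with RMA (R packages affy and affyPLM), and their deposited log2 values, 1 per probeset and array, were used without further scaling. RMA shrinks probesets near background, so low genes show small differences. Of 45101 probesets, 28898 were annotated to 1 gene, 551 to several and 15652 to none, and only the first were used. Groups were taken from the array titles and compared in limma 3.58.1 (R 4.3.3) with the array number as a random block (estimated correlation 0.488), since the study's methods adjust for scanning batches that the labels do not name. P-values are two-sided with Benjamini-Hochberg adjustment over 17097 genes. The fits were also run on simulated data with the same block correlation for all array numbers. That cannot show how they behave where the correlations differ between numbers, as here.

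The 48 genes and the further lists were chosen with earlier results of these data known. Values in every array are given for genes that passed (at most 8 per comparison, largest first), for the 4 largest where fewer than 4 passed, and for a list of receptors, factors and presentation genes whatever their values. Of the further pathway genes, counts and at least the 4 largest that passed are given. Promoter sequences are from RefSeq (GRCm38.p6). Alternatives covered the block, scaling, probeset choice, dim genes, prior variance and each array left out.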

Additional observations from a re-analysis of the deposited data

Results flagged for a closer look

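The 4 WT arrays were the only group large enough for a test of single arrays. There an array stood far from the other 3 by Dixon's ratio for 5 of the 42 genes. The nominal rate of this rule, for normally distributed values, is about 1 in 20. The share over all genes was not computed, and flags on the same array are not separate events. The count is therefore not a result about the set. Array 4b was high for 3 of the 5 genes: Oasl2 at 4.39, Ifit2 at 3.89 and Xaf1 at 7.38. The others were Psmb10, high at 8.44 in array 1, and Mx2, low at 3.18 in array 4. The cause was not tested.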

How the results depend on the processing

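The 19 single calls were each refitted in 20 to 22 alternative settings, some of which drop an array of neither group compared. Of the 413 results, 0 reversed, 327 kept their side of the threshold and 86 lost it. Gbp2, Irf1, Irf9, Psmb10 and Xaf1 with TGF-β in WT MSCs kept it in all 22 alternatives. Without the replicate block, 1 of the 42 genes was lower with TGF-β in p38α∆ MSCs (4 with it), 6 in WT MSCs (13 with it), and 0 were higher in p38α∆ than in WT MSCs with TGF-β (2 with it); over all genes these counts were 305 against 850, 316 against 917 and 14 against 63, and the genes higher with TGF-β were 319 against 586 in p38α∆ and 286 against 687 in WT MSCs. The count of genes higher in p38α∆ than in WT MSCs with TGF-β was also 0 with the block as fixed terms and 0 without the arrays numbered 1 (11 and 26 over all genes), and 5 with only the groups compared (113 over all genes). Genes lower in that comparison numbered 14 over all genes, against 0 without the block, 3 with fixed terms, 34 with only the groups compared, 3 without the arrays numbered 1 and 22 without the dimmest 25% of genes. With arrays centred on their median, 1 of the 42 genes was higher with TGF-β in p38α∆ and 1 in WT MSCs (671 and 742 over all genes). In WT MSCs 1 was higher also with only the groups compared (644 over all genes). The same held with the dimmest 25% of genes left out (744 over the genes kept). Leaving out each array in turn gave 0 to 1 genes higher and 2 to 8 lower with TGF-β in p38α∆ MSCs, 0 to 1 higher and 7 to 15 lower in WT MSCs, and 0 to 5 higher in p38α∆ than in WT MSCs with TGF-β and 0 to 1 without it; over all genes the ranges were 310 to 668 and 358 to 976, 443 to 760 and 509 to 1086, and 6 to 87. A group left with 1 array is assumed to vary like the others. With only the groups compared, the correlation within array numbers could not be estimated for the response of p38α∆ MSCs, and no value is given.

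Same-numbered arrays deviated from their group means with correlations of 0.02 to 0.85 over 14 pairs. Pairs of numbers 1 and 3 gave 0.64 to 0.85, and pairs of number 4 gave 0.02 to 0.31. The fit took 1 correlation, 0.488, for all numbers. This estimate fell to 0.11 without the arrays numbered 1. The cause of these changes was not tested. Low signal limits 8 of the 42 genes, which lie in the lowest 25% of all genes.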
